A study of Mus musculus with 12 samples.

Results

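Resident macrophage genes are the 10 genes Adgre1, Cx3cr1, Mertk, Timd4, Cd163, Folr2, Lyve1, C1qa, C1qb and C1qc, which were read on every probe that carried their symbol among the non-control spots of the arrays. They made up 10 of the 37074 genes measured and 14 of the 56605 probes, with 2 probes each for Adgre1, Cx3cr1, Cd163 and C1qc. Cecum RNA of C57BL/6 mice had been labelled with Cy3 and read on 1-colour Agilent arrays of the mouse transcriptome (SurePrint G3 design), where the brightness of a spot measures 1 transcript. There were 12 arrays, namely 3 sham controls and 3 each from ceca at 3, 12 or 72 h after they had been cauterized. Cauterized mice were anesthetized with pentobarbital, the abdomen was opened along the midline, and the cecum was coagulated with bipolar forceps, an injury that leads to adhesions. Per the study's methods the sham tissue was taken at 0 h, so that cauterization, the time since the operation and the time of day cannot be told apart. Ages were not given in the sources used here. The methods call the arrays of a group biological triplicates, and the number of arrays limits the precision.

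Macrophages that live in a tissue in steady state take up dying cells, old erythrocytes and debris, and the gut holds such cells in the mucosa, in the muscle layer and near the serosa, which also borders the macrophages of the peritoneal cavity. Many of them are replaced from blood monocytes, which lose monocyte genes and gain resident genes as they settle. The 10 genes encode surface proteins by which such cells are recognised (Adgre1, Cx3cr1), receptors for apoptotic cells (Mertk, Timd4), scavenger and uptake receptors (Cd163, Folr2, Lyve1) and the A, B and C chains of complement C1q (C1qa, C1qb, C1qc), of which macrophages are the main source. None of them is restricted to a single kind of macrophage, and Lyve1 also marks lymphatic endothelium.

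The labels were checked against genes that define the tissue and the sex. All 10 cecum markers, such as Cdx2, Vil1, Muc2 and Myh11, were well above background on all 12 arrays. The labels give the mice as male, yet Xist, the transcript of the inactive X chromosome, was well above background on 12 arrays and the Y-linked genes Ddx3y and Eif2s3y on 0. Among further Y-linked genes, Uty exceeded background on 1 array, a sham, and 1 probe of Kdm5d did so on 12 arrays while its others did so on 0. The arrays of all groups thus went against the sex in the labels, which was not a difference between groups. The arrays lay on 2 slides, scanned as 2 runs. The first held the sham and 3 h arrays and 12 h arrays 1 and 2, and the second held 12 h array 3 and the 72 h arrays, so that slide and time can be separated at 72 h only through 1 array.

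C1qb, C1qc and C1qa follow each other on chromosome 4 in the RefSeq annotation (GRCm38.p6), with no other coding gene between them. Their probes lie at chr4:136436578-136436637, chr4:136445766-136445825 and chr4:136452409-136452468 in mm9, the build of the array files, all on the minus strand. The probe of Cx3cr1 with the highest mean lies at chr9:119957811-119957870 on the minus strand, and that of Adgre1 at chr17:57622843-57622902 on the plus strand. Exons and untranslated regions were not assigned here. The promoters of C1qb and C1qc are shown because both genes rose at 72 h, and the one of Cx3cr1 because this gene fell early, at 3 h. Each is the 300 bases around the start of the transcript from RefSeq (GRCm38.p6), all on the minus strand, with the core letters of the site of PU.1 (GAGGAA, or TTCCTC on the other strand), a factor of the myeloid lineage, in capitals.
C1qb, chr4:136886151-136886450: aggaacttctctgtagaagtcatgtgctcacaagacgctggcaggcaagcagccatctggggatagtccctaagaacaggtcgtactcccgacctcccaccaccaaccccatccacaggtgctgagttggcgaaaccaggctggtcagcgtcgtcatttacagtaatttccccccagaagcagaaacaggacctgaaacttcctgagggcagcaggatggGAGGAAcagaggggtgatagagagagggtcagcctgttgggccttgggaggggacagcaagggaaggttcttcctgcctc
C1qc, chr4:136892865-136893164: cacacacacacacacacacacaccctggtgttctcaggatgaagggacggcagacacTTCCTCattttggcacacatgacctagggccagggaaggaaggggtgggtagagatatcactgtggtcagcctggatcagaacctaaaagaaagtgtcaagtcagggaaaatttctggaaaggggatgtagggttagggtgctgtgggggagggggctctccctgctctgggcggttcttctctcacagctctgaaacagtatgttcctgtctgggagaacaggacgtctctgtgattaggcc
Cx3cr1, chr9:120068247-120068546: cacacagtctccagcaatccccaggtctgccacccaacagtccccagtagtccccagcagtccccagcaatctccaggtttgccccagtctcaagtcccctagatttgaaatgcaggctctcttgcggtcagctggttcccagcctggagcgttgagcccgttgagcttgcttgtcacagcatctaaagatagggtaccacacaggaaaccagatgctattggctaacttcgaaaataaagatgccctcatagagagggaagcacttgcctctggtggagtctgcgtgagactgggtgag
The C1qb and C1qc promoters held 1 match each and the Cx3cr1 promoter held 0. Those of Cd163 and Folr2, which also rose at 72 h, and of Mertk and Timd4 are not shown and held 0. Promoters were found for 7 of the 10 genes in 8 entries, all but Adgre1, Lyve1 and C1qa. The PU.1 letters were in those of 2 of the 7 genes, C1qb and C1qc, against 28.3% of all 32851 promoters of this length. The AP-1 letters TGACTCA were found for 1 gene, Folr2, against 5.20% of all promoters. The E-box CACGTG was found for 0 genes, against 7.15%, with both strands read in each case. A match is a description of these letters and does not show binding.

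All values below are on a log2 scale, as the intensity relative to the array's own 75th percentile, called the log2 level, on the probe of a gene with the highest mean, and n is 3 arrays per group. All 10 of these probes were well above background on all 12 arrays. A gene was called higher or lower where its fold change passed 2 and its adjusted p in limma, over all probes, was below 0.05. In whole tissue, fewer cells of a type and less RNA per cell cannot be told apart. At 3 h, 0 of the 10 genes were called higher and 2 lower, which were Cx3cr1 and Mertk, beside 7.37% of all genes called at that time, 3.26% higher and 4.11% lower. At 12 h, Adgre1 was higher and Cx3cr1 and Folr2 were lower, that is 3 of 10 beside 9.06% of all genes, 4.10% higher and 4.96% lower. At 72 h, 6 of 10 were higher and 0 lower, beside 8.85% of all genes called, 4.55% higher and 4.30% lower. The 6 were Adgre1, Cd163, Folr2, C1qa, C1qb and C1qc. Between 3 h and 12 h only Cx3cr1 was called, and it was higher, beside 3.46% of all genes, 1.89% higher and 1.56% lower. Between 12 h and 72 h 7 of 10 were higher, beside 7.52% of all genes, 4.33% higher and 3.19% lower. The median log2 difference of the 10 genes from sham was 0.03, -0.31 and 1.38 at the successive times, beside 0.08, -0.01 and -0.14 over all genes. The F-test of limma across the 4 groups passed for 8 of 10, all but Timd4 and Lyve1, beside 39.3% of all genes.

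**Figure D1:**
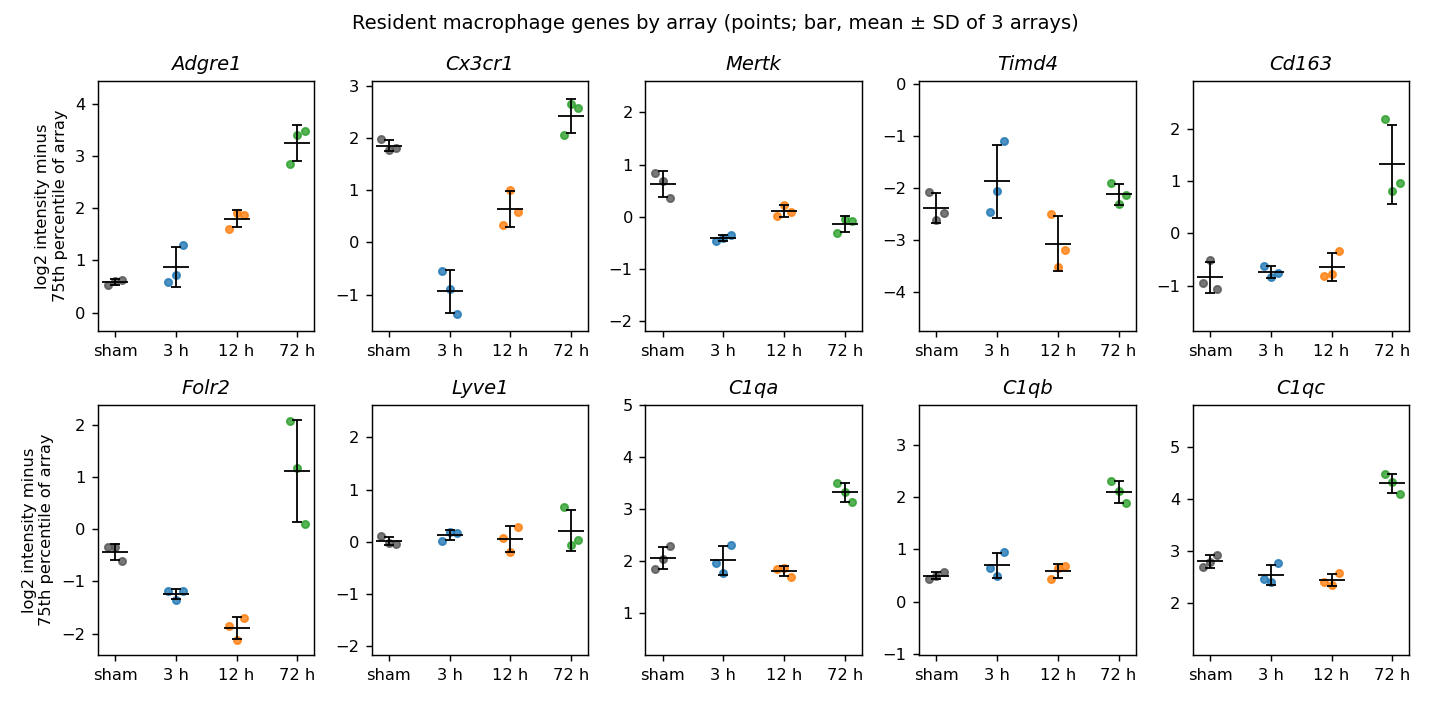
Log2 level of each of the 10 genes (relative to the array's 75th percentile, vertical axis, the same span in each panel) on the 3 arrays of sham, 3 h, 12 h and 72 h (points), with the mean ± SD as bars. Cx3cr1 falls to between -1.37 and -0.55 at 3 h, and the 72 h arrays of Adgre1, C1qa, C1qb, C1qc and Cd163 lie above all others.

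Adgre1 encodes the adhesion G protein-coupled receptor by which mouse macrophages are most often stained. Its log2 level was 0.52, 0.61 and 0.62 for sham, 0.60, 0.72 and 1.30 on the 3 h arrays, 1.61, 1.91 and 1.87 on those of 12 h, and 2.85, 3.40 and 3.49 on those of 72 h. The 3 h arrays overlapped with sham, while every 12 h array lay above both and every 72 h array above those of 12 h. The log2 difference from sham was 0.29 ± 0.21 (SE) at 3 h with an adjusted p of 0.357 in limma, 1.21 at 12 h with 0.00285, and 2.66 at 72 h with 4.76e-05, a 6.33-fold rise. Between 12 h and 72 h it rose by 1.45 (adjusted p = 0.00171, limma), and between 3 h and 12 h the difference of 0.92 missed the fold threshold. This last value passed it without 3 h array 3, at 1.14, and without 12 h array 1, at 1.02. The second probe, in an earlier part of the transcript, was above background on 0 sham and 3 h arrays, on 2 at 12 h and on all 3 at 72 h, which bounds the 72 h rise at that probe to at least 1.63-fold. Such a bound sets the mean of the brighter group against the dimmest signal that counted as well above background.

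Cx3cr1 encodes the receptor of the membrane-bound chemokine fractalkine and is carried by monocytes and by macrophages of the gut wall. The log2 level was 1.98, 1.78 and 1.81 for sham, -0.55, -0.89 and -1.37 on the 3 h arrays, 0.33, 1.01 and 0.59 on those of 12 h, and 2.06, 2.66 and 2.58 on those of 72 h. No array of 3 h or 12 h reached the lowest sham array, no 3 h array reached the lowest of 12 h, and all 72 h arrays lay above sham. The gene fell by 2.79 ± 0.24 (SE) on the log2 scale at 3 h, a 6.92-fold fall with an adjusted p of 9.34e-05 in limma, and was still lower by a log2 difference of -1.21 at 12 h (0.00612). It then rose by 1.58 between 3 h and 12 h (adjusted p = 0.00525, limma) and by 1.79 between 12 h and 72 h (0.00126). At 72 h the log2 difference from sham of 0.58 was not called, with a 95% confidence interval of 0.03 to 1.12. The second probe, which lies in another stretch of the same transcript and was above background on all 12 arrays, gave log2 differences of -2.78, -1.27 and 0.53 from sham at the 3 times. The ligand Cx3cl1, read for comparison, differed from sham by 0.81, 0.65 and 0.46 on the log2 scale, under the fold threshold each time. Of its shedding enzymes Adam10 and Adam17, 0 of 2 were called at any time.

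**Figure D2:**
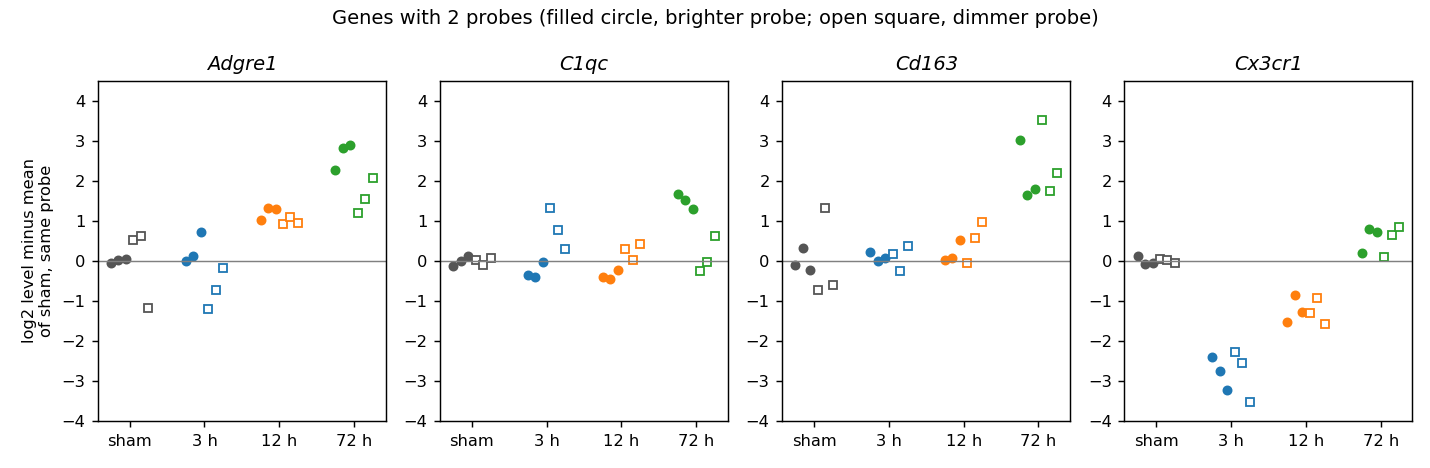
Log2 level minus the mean of the sham arrays at the same probe (vertical axis) for the 4 genes with 2 probes, by group, with the brighter probe as filled circles and the dimmer as open squares. The probes of Cx3cr1 move together, while the dimmer probe of C1qc was not well above background on any array. Those of Adgre1 and Cd163 were not well above background in sham or at 3 h, and that of Cd163 also not at 12 h.

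Mertk, a receptor tyrosine kinase through which macrophages bind apoptotic cells coated with Gas6 or protein S, was called lower at 3 h. Its log2 level was 0.83, 0.68 and 0.35 for sham, -0.46, -0.41 and -0.35 on the 3 h arrays, 0.01, 0.23 and 0.08 on those of 12 h, and -0.32, -0.04 and -0.08 on those of 72 h. Every array after cauterization lay below every sham array. The log2 difference was -1.03 ± 0.14 (SE) at 3 h, a 2.04-fold fall with an adjusted p of 0.000998 in limma. At 12 h it was -0.51 (0.0257) and at 72 h -0.77 (0.00419), both under the fold threshold. The 3 h call lay close to that threshold, and the difference was -0.92 without sham array 1, -0.996 without sham array 2 and -0.999 without 3 h array 1, each short of a call. Timd4, the phosphatidylserine receptor Tim-4 of long-lived resident macrophages, was called at no time. Its log2 level ranged from -2.62 to -2.07 in sham, from -2.47 to -1.11 at 3 h, from -3.52 to -2.50 at 12 h and from -2.31 to -1.91 at 72 h. The sham range overlapped with that of every other group. Its log2 difference from sham was 0.27 at 72 h, with a 95% confidence interval of -0.51 to 1.05. Between 3 h and 12 h it was -1.19 (adjusted p = 0.0647, limma), which passed without 3 h array 1, at -1.49.

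Of 22 further genes for receptors, bridging proteins and engulfment of apoptotic cells on the array, 1 was called higher and 1 lower at 3 h. At 12 h 4 were higher and 3 lower, and at 72 h 4 were higher and 1 lower. Among all genes 3.26% were called higher and 4.11% lower at 3 h. The shares were 4.10% and 4.96% at 12 h and 4.55% and 4.30% at 72 h, and they apply to the later lists too. Gas6, the ligand of Mertk, fell by 1.11 on the log2 scale at 12 h (adjusted p = 0.0012, limma), with differences of -0.39 at 3 h and 0.21 at 72 h that were not called. Axl, a related receptor of the same ligand, differed by -0.08, 0.28 and 0.57 and was not called. Among the genes that rose were Cd300a, a receptor for phosphatidylserine, by 2.49 at 12 h and 2.55 at 72 h, and Abca1, a cholesterol exporter induced after engulfment, by 1.53 and 2.44. The lower call at 3 h was Megf10, named here after its values were seen, which was not above background in sham either. At 72 h, 2 of the 5 calls were kept with slide as a block in the fit.

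Cd163 encodes the scavenger receptor for complexes of hemoglobin and haptoglobin. Its log2 level was -0.95, -0.51 and -1.07 for sham, -0.63, -0.84 and -0.76 on the 3 h arrays, -0.82, -0.78 and -0.33 on those of 12 h, and 2.19, 0.81 and 0.97 on those of 72 h. The first 3 groups overlapped, and the 72 h arrays lay above all of them, with array 1 well above the other two. The rise at 72 h was 2.17 ± 0.32 (SE) on the log2 scale, or 4.49-fold, with an adjusted p of 0.00151 in limma, and the differences at 3 h and 12 h were 0.10 and 0.20. The second probe was above background only at 72 h, on 3 arrays, which bounds its rise over sham to at least 1.81-fold. In the fit with slide as a block the 72 h difference was 1.70 and lost its call (adjusted p = 0.159, limma). Of 10 genes for haptoglobin, heme and iron handling, the 3 h comparison called 3 higher, the 12 h comparison 3 higher and 1 lower, and the 72 h comparison 4 higher. Hp, haptoglobin, rose by 4.35, 6.46 and 7.63 on the log2 scale at the 3 times, and Hmox1, which degrades heme, by 2.91, 3.03 and 3.76. Of the 4 calls at 72 h, 3 were kept with slide as a block.

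Folr2 encodes folate receptor beta, an uptake receptor of resident macrophages. Its log2 level was -0.34, -0.34 and -0.60 for sham, -1.18, -1.35 and -1.19 on the 3 h arrays, -1.86, -2.12 and -1.69 on those of 12 h, and 2.07, 1.18 and 0.10 on those of 72 h. The 4 groups did not overlap, and they ran downward from sham through 3 h to 12 h with 72 h highest and most spread. The log2 difference from sham was -0.81 at 3 h (adjusted p = 0.161, limma), -1.47 ± 0.38 (SE) at 12 h (0.0215) and 1.55 at 72 h (0.0179). From 12 h to 72 h it rose by 3.01 on the log2 scale, 8.07-fold, the widest step of the 10 genes between successive times after cauterization. The 12 h call was lost without sham array 1 (-1.42), sham array 2 (-1.42), 12 h array 1 (-1.48) or 12 h array 2 (-1.35), and with normexp background correction, at -0.90 (adjusted p = 0.0601, limma). The 72 h call was lost without sham array 3 (1.46) or 72 h array 2 (1.52), and with slide as a block, at 1.25 (adjusted p = 0.345, limma). It was also lost when the fit held only sham and 72 h (adjusted p = 0.0802, limma). Of 4 other folate receptors and transporters, only Folr1, folate receptor alpha, was called against sham, lower by a log2 difference of -1.98 at 12 h.

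Lyve1, a hyaluronan receptor of perivascular macrophages and lymphatic endothelium, was called at no time. Its log2 level lay between -0.04 and 0.11 for sham, 0.02 and 0.20 on the 3 h arrays, -0.21 and 0.28 on those of 12 h, and -0.07 and 0.66 on those of 72 h. All 4 groups overlapped. The log2 difference was 0.11, 0.03 and 0.19 at the 3 times, and the 95% confidence interval at 72 h was -0.23 to 0.62, below the fold threshold. Of 8 lymphatic endothelium markers 1 rose at each time, Pdpn, by 1.73, 2.32 and 2.58. The study used podoplanin, the product of Pdpn, as a mark of mesothelial cells in the adhesion. At 72 h 1 marker fell, Nts, by 1.20, a call lost with slide as a block. The median log2 difference of the 8 markers was -0.21, -0.46 and -0.15 at the 3 times. Prox1, which defines lymphatic endothelium, differed by -0.27, -0.69 and -0.20 and was not called.

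The C1q chains, which assemble into the recognition part of the classical complement pathway, were called only at 72 h among the times against sham. The log2 level of C1qa was 1.85, 2.05 and 2.28 for sham, 1.97, 1.77 and 2.32 on the 3 h arrays, 1.86, 1.86 and 1.70 on those of 12 h, and 3.50, 3.34 and 3.13 on those of 72 h. That of C1qb was 0.44, 0.49 and 0.57 for sham, 0.64, 0.49 and 0.94 on the 3 h arrays, 0.44, 0.65 and 0.67 on those of 12 h, and 2.32, 2.11 and 1.89 on those of 72 h. That of C1qc was 2.69, 2.79 and 2.93 for sham, 2.46, 2.40 and 2.77 on the 3 h arrays, 2.41, 2.35 and 2.58 on those of 12 h, and 4.47, 4.32 and 4.10 on those of 72 h. For each chain the 72 h arrays lay above all others, and the other groups overlapped except that the 12 h arrays of C1qc lay below sham. The rise at 72 h was 1.26 ± 0.17 (SE) for C1qa (adjusted p = 0.000895), 1.61 ± 0.15 for C1qb (0.000108) and 1.49 ± 0.14 for C1qc (0.000124) on the log2 scale in limma. The corresponding folds were 2.39, 3.06 and 2.82. Their differences at 3 h and 12 h lay between -0.36 and 0.19. The probes of the chains shared runs of at most 6 bases. The other probe of C1qc, to the transcript model ENSMUST00000153104, was above background on 0 arrays. When both probes of C1qc were averaged its rise was 0.81, under the fold threshold. The 3 chains kept their calls with slide as a block, at 1.42, 1.48 and 1.30.

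Of 9 further complement genes, of the classical pathway or downstream of it, 0 were called at 3 h and 12 h, and 7 rose at 72 h. They included C1ra, the protease chain that C1q activates, by 1.41, C4b by 1.30, the central component C3 by 1.91, and its receptor C3ar1 by 2.37 on the log2 scale. Of these 7, 4 kept their calls with slide as a block, while C3, C4b and Serping1 lost them.

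**Figure D3:**
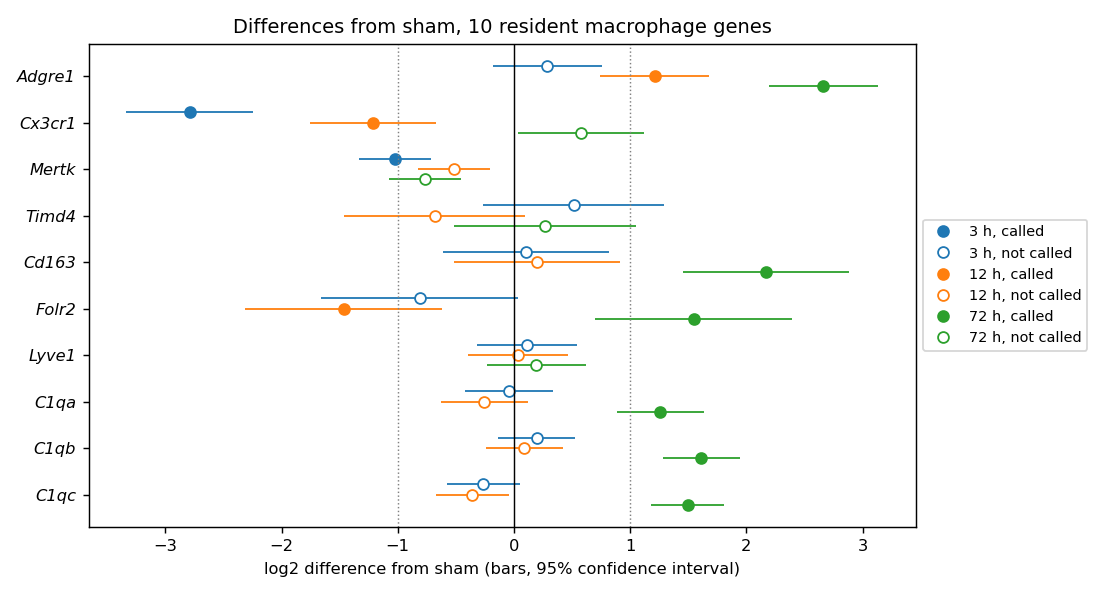
Log2 difference from sham of each gene (horizontal axis) at the 3 times, with its 95% confidence interval, filled where the gene was called and open where not, and dotted lines at a 2-fold change. Only Cx3cr1 and Mertk are called at 3 h, both to the left of 0, and the 6 genes called at 72 h are all to the right.

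The genes most like each of the 10 were sought among 20791 genes above background on all arrays, by the Pearson correlation r of their log2 levels over the 12 arrays. These arrays share the 4 groups, so that r is a description. Nearest to C1qc were Cpz (r = 0.987) and Trem2 (0.982), the latter a lipid receptor of macrophages. C1qa was nearest to C1qc (0.980) and Gm4788 (0.970), and C1qb to Fn1 (0.981), fibronectin, and Pltp (0.977). Adgre1 was nearest to Mpeg1 (0.975), which encodes a pore-forming protein of macrophages, and Mfsd4 (0.973). Cx3cr1 was nearest to Rab38 (0.992) and Gucy1b3 (0.986). Folr2 was nearest to Pdgfrl (0.991) and the collagen gene Col16a1 (0.990), and Cd163 to Dbn1 (0.975) and Trip6 (0.975). Mertk was nearest to Gprin3 (0.968) and Erbb2 (0.968), Timd4 to Macf1 (0.893) and AK030611 (0.861), and Lyve1 to Stac3 (0.846) and Pvrl4 (0.834).

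Other genes of the resident macrophage programme were read beside the 10. Of 25, the 3 h comparison called 3 higher, the 12 h comparison 5 higher and 2 lower, and the 72 h comparison 13 higher, with a median log2 difference of -0.05, -0.43 and 1.39. Trem2 rose by 3.76 at 72 h, Marco, a scavenger receptor, by 2.03 at 12 h and 3.93 at 72 h, and Mrc1, the mannose receptor, by 1.71 at 72 h. The C-type lectin gene Clec10a fell by 2.68 at 12 h. Il10, an anti-inflammatory cytokine that was not above background in sham, was at least 3.51-fold higher at 3 h and at least 3.86-fold higher at 12 h. With slide as a block 6 of the 13 kept their 72 h call, and Mrc1 was among those that lost it.

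Of 16 growth factors, receptors and identity factors of macrophages, 5 rose at 3 h, 6 at 12 h and 10 at 72 h. Csf1r, the receptor of the growth factors CSF-1 and IL-34, had a mean log2 level of 4.25 ± 0.01 (SD) in sham, 3.69 ± 0.15 on the 3 h arrays, 3.97 ± 0.11 on those of 12 h and 5.76 ± 0.04 on those of 72 h. Its difference from sham was -0.56 and -0.28 at 3 h and 12 h, under the fold threshold, and it rose by 1.51 at 72 h. Spi1, which encodes PU.1, rose by 1.11, 2.95 and 2.57 at the 3 times. Nr4a1 rose by 3.30, 4.16 and 2.41. Of these, 6 of 10 kept their calls at 72 h with slide as a block. Of 15 genes found in macrophages and monocyte-derived cells alike, 3, 8 and 10 rose at the 3 times, among them Cd14, a coreceptor for bacterial lipopolysaccharide, by 3.37, 4.49 and 3.04. Slide as a block kept 7 of these 10 calls at 72 h.

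Markers of other cells moved at the same times, and their part in the results above was not tested. Of 14 inflammatory monocyte genes on the array 10 rose at 3 h, 12 at 12 h and 11 at 72 h, and 0 fell. Their summed linear level, in units of the 75th percentile of the array, was 230.2 to 352 in sham, 616 to 723 at 3 h, 697 to 803 at 12 h and 302 to 389 at 72 h, with Arg1 and Ccr1 not above background in sham. Ccr2, the chemokine receptor by which monocytes leave the marrow, differed by 0.40 at 3 h, which was not called, and rose by 2.47 at 12 h and 3.38 at 72 h. Arg1 was at least 13.6-fold, 94.6-fold and 300.5-fold higher at the 3 times. Of 14 neutrophil markers 8, 11 and 9 rose, and their sum went from 81.9 to 93.0 in sham to 361 to 600.2 at 3 h, 826 to 866 at 12 h and 353 to 643 at 72 h. With slide as a block, 7 of the 11 inflammatory monocyte calls and 5 of the 9 neutrophil calls at 72 h were kept. In sham Cxcr1, Cxcr2, Ltf and Ngp were not above background. The summed level of the 10 resident macrophage genes was 21.2 to 22.6 in sham and 15.4 to 20.0 at 3 h. It was 17.7 to 19.5 at 12 h and 52.0 to 61.3 at 72 h. Its 72 h range thus lay above sham and its earlier ranges below. Cx3cr1, among the brightest of the 10 in sham, fell at 3 h from a mean log2 level of 1.86 to -0.93. The median log2 difference of the 10 genes was 0.03 at 3 h and -0.31 at 12 h.

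Tissue markers differed from sham as well. Of 10 cecum markers 1 was higher at 3 h, 3 were lower at 12 h and 4 lower at 72 h, among them the smooth muscle genes Myh11 and Des, with log2 differences of -2.29 and -1.55 at 72 h. With slide as a block 2 of these 4 kept their call. Their summed level was 1290.1 to 1380.4 in sham, 1360 to 1501 at 3 h, 1044 to 1272 at 12 h and 599 to 810.4 at 72 h, so that at 12 h it lay below sham like that of the 10 genes and at 72 h it lay below where that of the 10 genes lay above. Of 6 mesothelial markers, 3 were lower at 3 h and at 12 h and 1, Wt1, was higher at 72 h, a call lost with slide as a block. Their summed level was 218 to 264 in sham, 326 to 365 at 3 h, 213 to 275 at 12 h and 141 to 202 at 72 h, above sham at 3 h and below it at 72 h. Such a sum follows its brightest genes. The median log2 difference of the 6 markers was instead negative early, with -1.80 (3 h) and -1.64 (12 h), and close to sham later, with 0.03 (72 h). Upk3b and Lrrn4 were not above background at 3 h and 12 h. Of 8 eosinophil markers 0, 0 and 2 were higher, and Epx, which defines these cells, was above background on 0 arrays. Of 8 dendritic cell markers 2, 1 and 0 were higher, of 8 T and NK cell markers 0, 1 and 1, and of 6 B cell markers 0 at each time. The 2 eosinophil calls, Ear1 and Ear2, and the T and NK cell call at 72 h, Gzma, were lost with slide as a block.

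**Figure D4:**
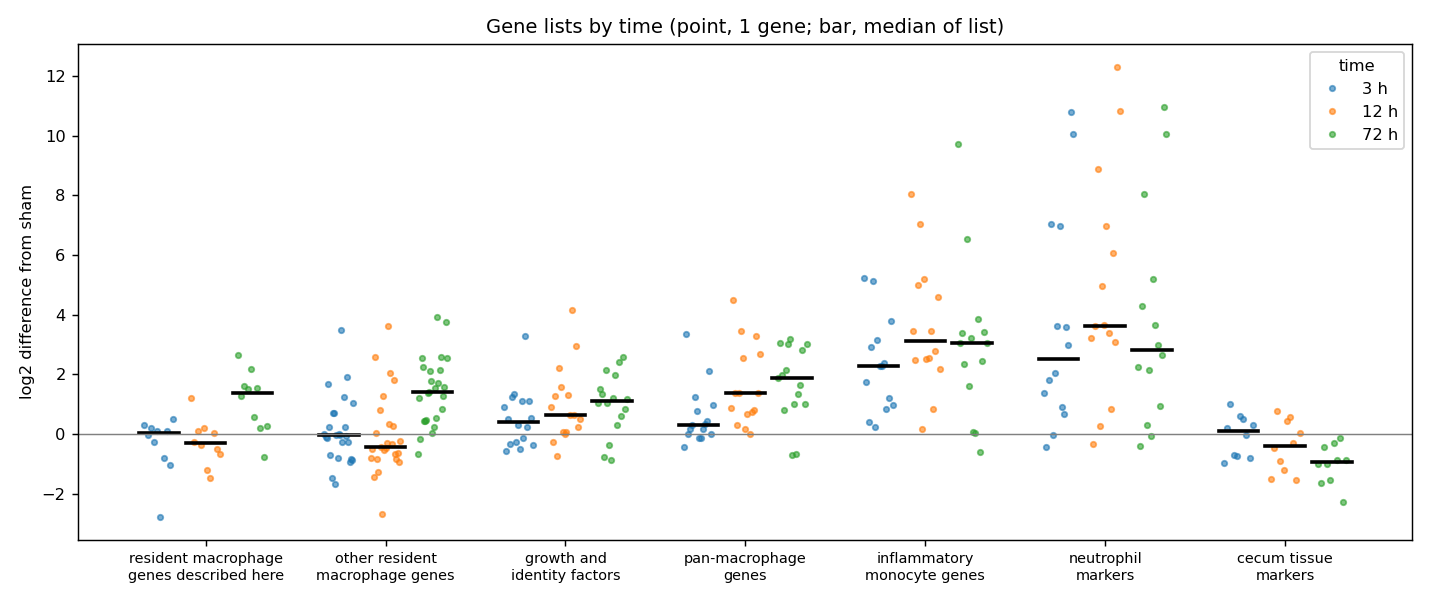
Log2 difference from sham (vertical axis) of each gene (points) of 7 lists at the 3 times, with the median of the list as a bar. The medians of both resident macrophage lists lie near or below 0 until 12 h and at 1.38 and 1.39 at 72 h, while those of the inflammatory monocyte and neutrophil lists are above 2 at all 3 times and that of the cecum tissue markers is -0.93 at 72 h.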

How the data were processed

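For each array the authors deposited scanner files made with Agilent Feature Extraction 11.5.1.1, whose processed signal is a background-corrected intensity that is not normalized between arrays. The authors also deposited their processed log2 values, which were used here as an alternative. Probe coordinates are those of mm9. After control and outlier spots were removed and replicate spots averaged, log2 intensity minus the 75th percentile over 56605 probes was fitted with limma 3.58.1 in R 4.3.3 on 4 group means, adjusted by Benjamini-Hochberg over all probes. The fit was tested on simulated data. Between 60.2% and 65.2% of probes were well above background per array, and within groups the correlation across probes was 0.985 to 0.992. Tables were made with Python 3.11.15 and pandas. The genes and lists were chosen with earlier results of these data known. Besides the 10 genes, up to 4 called genes per list with the largest difference were to be named, with Csf1r, Cx3cl1, Gas6, Axl, Ccr2, Prox1, Mrc1 and the 2 genes most correlated with each. Not all are named, 1 gene and 1 of the promoter motifs searched are not reported here, and Serping1 was named after its values were seen. Listed symbols Chi3l3, C1s, Bai1, Folr4 and Siglec5 were not found on the array. The genes of the older symbols Chi3l3, C1s and Bai1 were read as Chil3, C1s1 and Adgrb1. Alternatives were other scalings and background corrections, the authors' table, filters, blocks, call rules, a t-test paired by array number and leaving out each array.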

Additional observations from a re-analysis of the deposited data

Results flagged for a closer look

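For 7 genes the effect against sham differed between 2 successive times, as a test of the difference itself in limma showed. The difference of the effects is the log2 difference between the times, since both share the sham arrays. From 3 h to 12 h this was found for Cx3cr1, at 1.58. From 12 h to 72 h it was found for Adgre1 at 1.45, Cx3cr1 at 1.79, Cd163 at 1.97, Folr2 at 3.01, C1qa at 1.52, C1qb at 1.52 and C1qc at 1.85, with the 72 h arrays higher in each. Within the second slide, which holds 12 h array 3 and the 72 h arrays, these 7 differences were 1.37, 1.84, 1.65, 2.81, 1.62, 1.44 and 1.72 in that order. A fit with a lone 12 h array cannot decide which of them to call. With slide as a block the 7 differences were the same values, since only 12 h array 3 shares a slide with the 72 h arrays. That fit takes the spread from all arrays, and 6 of the 7 were called, all but Cd163. The part of the slide in them was not tested beyond this.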

How the results depend on the processing

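Of 19 calls among the 10 genes, 7 held under every alternative fitted with limma and 0 changed direction there. Those alternatives include the fit within the second slide, where a lone 12 h array cannot decide on calls between 12 h and 72 h. The calls of Adgre1, Cx3cr1, Folr2, C1qa and C1qb between these times were lost in that fit alone. Against sham, 2, 3 and 6 genes were called at the successive times, with 1 between 3 h and 12 h and 7 between 12 h and 72 h. At 3 h the count was 1 with normexp background correction, and 1 to 2 with an array left out. Between 3 h and 12 h it was 2 with the filter on dim probes, with trend and robust eBayes and with the mean of all probes, 3 with no fold threshold, and 1 to 2 with an array left out. Between 12 h and 72 h the fit within the second slide had a lone 12 h array, so no count is given. The study's general statistics name a paired t-test for 2 groups, run here with arrays paired by their number. Its array genes were instead selected at a fold above 2 and an adjusted p below 0.05. With the fold threshold, the paired t-test called 0 of the 10 in each comparison after Benjamini-Hochberg. Over all 37074 genes it called 0, 0, 0, 1 and 0. At unadjusted p it called 2, 3, 4, 1 and 6 of the 10, beside 2212, 2840, 2627, 996 and 1894 of all genes. At 12 h normexp gave 2, without Folr2. At 72 h slide as a block gave 4, only the 2 groups compared gave 5, without Folr2, and the mean of all probes gave 5, without C1qc, which it also lost between 12 h and 72 h (0.86). The replicate block left the counts at 2, 3, 6, 1 and 7. Same-numbered arrays deviated with correlations of -0.40 to 0.26, so that they share only a number.

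Values near 0 that were not called changed sign. With the 75th percentile over probes above background on all arrays, Cd163 at 3 h was -0.012, Lyve1 at 3 h -0.0014 and Lyve1 at 12 h -0.024. With slide as a block, Cd163 from 3 h to 12 h was -0.060, and Lyve1 was -0.081 at 12 h, -0.15 at 72 h and -0.072 from 12 h to 72 h, and the values within the slide that holds both times were the same (-0.060, -0.081 and -0.072). With the mean of all probes, Adgre1 at 3 h was -0.21, C1qc at 3 h 0.27 and Cx3cl1 at 72 h -0.11. With an array left out, Cd163 was -0.010 to 0.27 at 3 h and -0.060 to 0.19 from 3 h to 12 h. Lyve1 was -0.081 to 0.16 at 12 h, -0.033 to 0.33 at 72 h, -0.19 to 0.049 from 3 h to 12 h and -0.067 to 0.30 from 12 h to 72 h. C1qa was -0.19 to 0.082 at 3 h, C1qb -0.21 to 0.022 and C1qc -0.17 to 0.017 from 3 h to 12 h. The causes were not tested.

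Over all genes, normexp called 838, 1327, 1258, 573 and 1065 in the 5 comparisons against 2732, 3360, 3282, 1282 and 2788. Slide as a block called 1152 at 72 h and 1225 from 12 h to 72 h, and the slides alone called 837 from 3 h to 12 h and 17 from 12 h to 72 h. At 72 h, 1687 of 3282 called genes were higher, against 1851 of 2949 with quantile normalization, which moved the median of all genes by 0.13 there, and 870 of 1258 with normexp.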
